A study of Mus musculus with 11 samples.

Results

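H3K27me3 over the Gata and Tal genes was described from the peak lists of 4 regions of the embryonic mouse forebrain. The members were *Gata2*, *Gata3*, *Gata4*, *Gata5*, *Gata6*, *Tal1* and *Tal2*, 7 of the 21755 protein-coding genes on chromosomes 1 to 19 and X, and they were chosen by name. Each gene was read over its GENCODE gene body (mm10) and 10 kb either side, hereafter its window. The study profiled this mark by CUT&Tag, where a transposase tethered to an antibody cuts and tags the DNA next to marked nucleosomes. Tissue of wild-type C57BL/6J embryos was microdissected into somatosensory cortex (CTX), where glutamatergic neurons arise, and the ventral sources of GABAergic neurons, the medial (MGE), caudal (CGE) and lateral (LGE) ganglionic eminence. No group carried a treatment or an altered allele. The study's methods place the CUT&Tag tissue at E12.5, and the labels' protocol speaks of embryos of E12.5 and E14.5. There were 11 samples, 2 of MGE and 3 each of CGE, LGE and CTX, and in the groups of 3 a pair of samples shared replicate number 2. The submitters merged the samples of a region before peaks were called, so each region had 1 list without replicate error, and no difference between lists could be tested. The lists held 15384 (MGE), 19196 (CGE), 16851 (LGE) and 18785 (CTX) peaks, and the read depth behind a peak is not in them. The tissue is a mixture, so a mark on fewer cells and less mark per cell cannot be told apart.

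H3K27me3 is deposited by Polycomb repressive complex 2 and is found over developmental regulators that a cell lineage does not use, often as broad domains on CG-rich DNA. GATA factors are zinc-finger proteins, of which GATA2 and GATA3 act in blood and in parts of the nervous system and GATA4, GATA5 and GATA6 in heart and endoderm. TAL1 and TAL2 are basic helix-loop-helix proteins. TAL1 joins GATA factors in blood and endothelial cells, and GATA2, GATA3, TAL1 and TAL2 specify GABAergic neurons of the midbrain or spinal cord. The GABAergic neurons of the forebrain arise from the eminences under other regulators, chiefly DLX proteins.

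The DNA just upstream of 5 of the start sites is shown to set the *Gata3* stretch, which is rich in CG and lay under no peak in any list, beside 4 that lay wholly under a peak in all 4 lists. Each is the 250 bases before a RefSeq start (GRCm38.p6), read 5′ to 3′ on the strand of the gene, with each CG dinucleotide in capitals. They are *Gata2* at chr6:88193641-88193890 (plus strand), *Gata3* at chr2:9878601-9878850 (minus strand), *Gata5* at chr2:180334680-180334929 (minus strand), the inner *Tal1* start at chr4:115057561-115057810 (plus strand) and *Tal2* at chr4:53779451-53779700 (plus strand).
Gata2: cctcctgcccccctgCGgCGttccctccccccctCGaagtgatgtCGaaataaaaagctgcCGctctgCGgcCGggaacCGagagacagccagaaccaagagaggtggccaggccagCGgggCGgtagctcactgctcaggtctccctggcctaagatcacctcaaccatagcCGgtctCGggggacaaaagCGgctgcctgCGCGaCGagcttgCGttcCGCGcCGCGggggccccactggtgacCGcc
Gata3: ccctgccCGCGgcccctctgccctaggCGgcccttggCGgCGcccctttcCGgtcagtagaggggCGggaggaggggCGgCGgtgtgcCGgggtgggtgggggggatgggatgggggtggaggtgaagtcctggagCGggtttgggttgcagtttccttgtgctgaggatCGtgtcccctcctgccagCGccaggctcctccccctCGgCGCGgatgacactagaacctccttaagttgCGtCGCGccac
Gata5: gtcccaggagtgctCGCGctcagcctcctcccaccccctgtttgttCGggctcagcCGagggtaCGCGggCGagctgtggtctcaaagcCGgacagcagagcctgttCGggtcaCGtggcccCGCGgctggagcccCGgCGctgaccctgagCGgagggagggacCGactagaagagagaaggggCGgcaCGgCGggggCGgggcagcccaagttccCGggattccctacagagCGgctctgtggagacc
Tal1: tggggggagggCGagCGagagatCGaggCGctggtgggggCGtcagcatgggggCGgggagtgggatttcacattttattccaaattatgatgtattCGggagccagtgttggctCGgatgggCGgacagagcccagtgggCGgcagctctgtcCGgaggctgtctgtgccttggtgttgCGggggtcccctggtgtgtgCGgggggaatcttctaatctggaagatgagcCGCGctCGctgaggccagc
Tal2: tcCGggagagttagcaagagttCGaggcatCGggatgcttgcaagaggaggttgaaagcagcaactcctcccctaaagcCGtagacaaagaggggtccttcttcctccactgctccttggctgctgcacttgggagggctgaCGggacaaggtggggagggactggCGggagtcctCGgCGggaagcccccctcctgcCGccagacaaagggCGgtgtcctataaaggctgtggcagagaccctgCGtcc
Promoter stretches were read for 5 of the 7 members. *Gata4* had none among the RefSeq promoters and *Gata6* was left out of this step, so neither is shown. The *Gata3* stretch held 19 CG dinucleotides at 70.0% G and C. The covered stretches held 22 (*Gata2*, 67.2%), 22 (*Gata5*, 70.0%), 16 (*Tal1*, 62.8%) and 11 (*Tal2*, 61.6%), and the median over the 32619 RefSeq promoter stretches was 6 at 52.4%. The outer *Tal1* stretch, chr4:115056176-115056425, was covered in full in all 4 lists too, with 6 CG dinucleotides at 48.8%. The GATA site AGATAA, looked for on both strands, occurred once in that stretch, in none of the 5 shown and in 10.0% of all the stretches. The E-box CAGATG was in none of these and in 14.4% of all.

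Before the members, the labels were read against genes known for these regions. *Nkx2-1*, which specifies the MGE, was covered over 76.7 to 78.2% of its gene body in all 4 lists, MGE included. Over the gene body *Nr2f2*, strong in the CGE, was covered least in CGE (20.4% against 31.7 to 34.4%) and *Emx1*, a cortical gene, least in CTX (20.6% against 41.7 to 42.2%). The 2 kb on both sides of the 5′ end set CGE apart less. There *Nr2f2* was 27.25% covered in CGE, close to 27.4% in LGE and 27.6% in CTX, and 59.65% covered in MGE. *Emx1* was still 87.1% covered there in CTX, against 98.9 to 100% in the others. *Neurod2*, which marks cortical neurons, was not lowest in CTX, at 82.9% against 77.3% in LGE. Of genes expressed in neurons or in all cells, *Tubb3* was covered over 3.97 to 7.16% of its gene body, and over 18.6, 49.2, 42.7 and 56.2% of the 2 kb on both sides of its 5′ end in MGE, CGE, LGE and CTX. *Map2* was uncovered in all lists and *Actb* in all but MGE, where 8.02% of it was covered.

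All 7 genes had at least 1 peak in their window in every list. A peak in the window was common, with 43.3% (MGE), 46% (CGE), 44.7% (LGE) and 47.2% (CTX) of all protein-coding genes having one and 36.1% having one in all 4 lists. The members were covered over more of the window than the median gene. Over the 7 members the median share of the window under peaks was 24.8% (MGE), 28.6% (CGE), 21.4% (LGE) and 23.0% (CTX). Over all genes it was 0 in each list, and over the genes with a peak it was 3.27, 4.46, 3.58 and 3.57%. By mean coverage over the lists *Gata2* ranked 72 of 21755, *Gata3* 201, *Tal1* 297, *Gata4* 423, *Tal2* 784, *Gata6* 860 and *Gata5* 1502. Counted in covered bases, which do not fall with the length of the window, *Gata4* came first among the members at rank 49 and *Gata5* last at rank 2716.

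**Figure D1:**
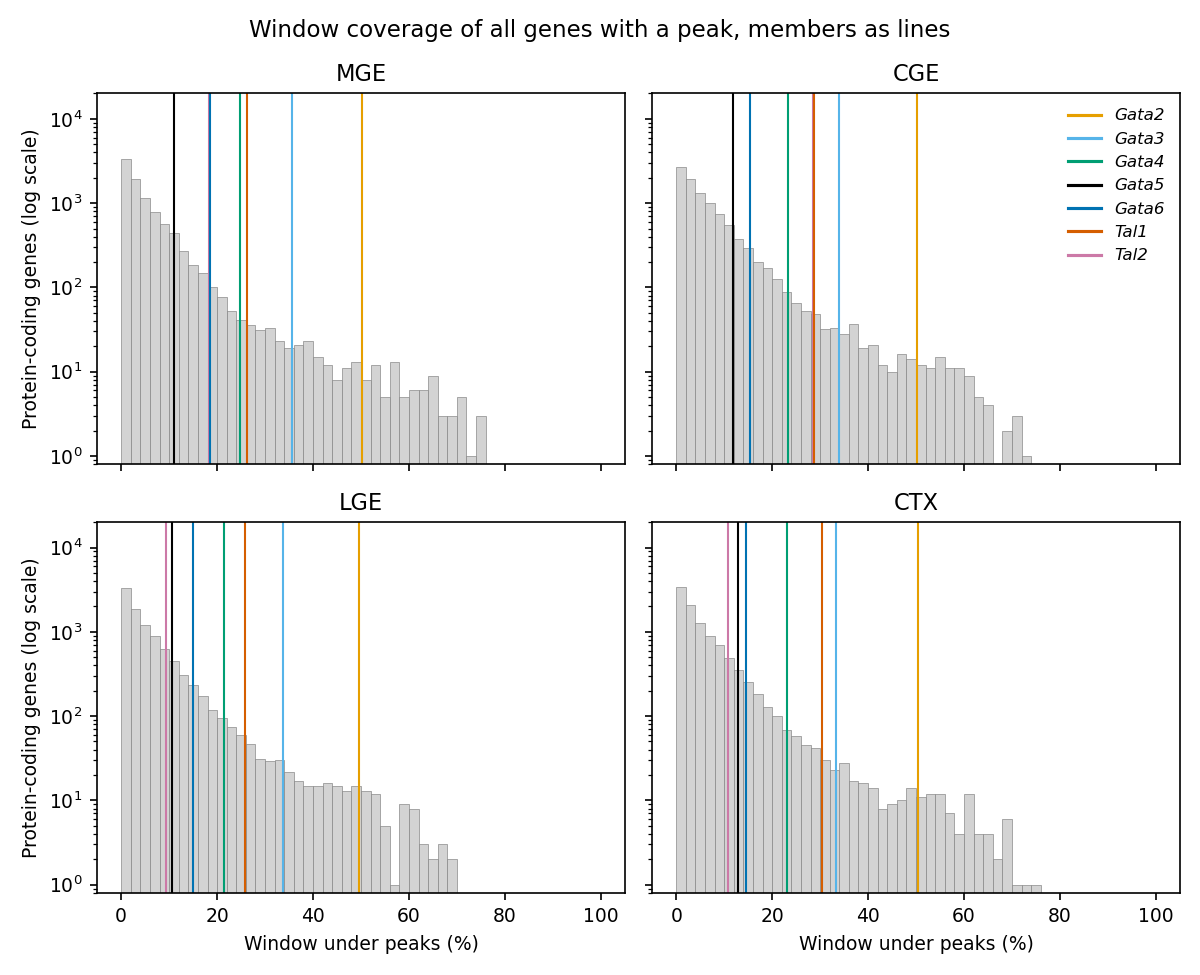
Number of protein-coding genes with a peak (log scale) by the percent of the window under peaks, in bins of 2 points, in each merged list, with each member as a coloured line. Genes with no peak are left out; *Gata2* stands near 50% in every list and *Gata5* near 11 to 13%, and the line of *Tal2* moves from 9.36% in LGE to 28.6% in CGE.

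At least 50% of the 2 kb upstream of the GENCODE 5′ end was under peaks, here called a marked promoter, in 5 of the 7 members in MGE and CGE and in 4 in LGE and CTX. The shares of all genes were 6.47% (MGE), 8.33% (CGE), 6.52% (LGE) and 7.14% (CTX). *Gata2*, *Gata3*, *Gata5* and *Tal1* were marked in all 4 lists, as were 4.72% of all genes, and *Tal2* was marked in MGE and CGE. *Gata4* and *Gata6* did not reach the threshold in any list at this 5′ end. With 2 kb on both sides, *Gata4* joined the other 4 in being marked in all lists, against 7.54% of all genes. Of the 9 curated RefSeq starts of the members, 8 lay under a peak in all 4 lists and the *Gata3* start in none.

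**Figure D2:**
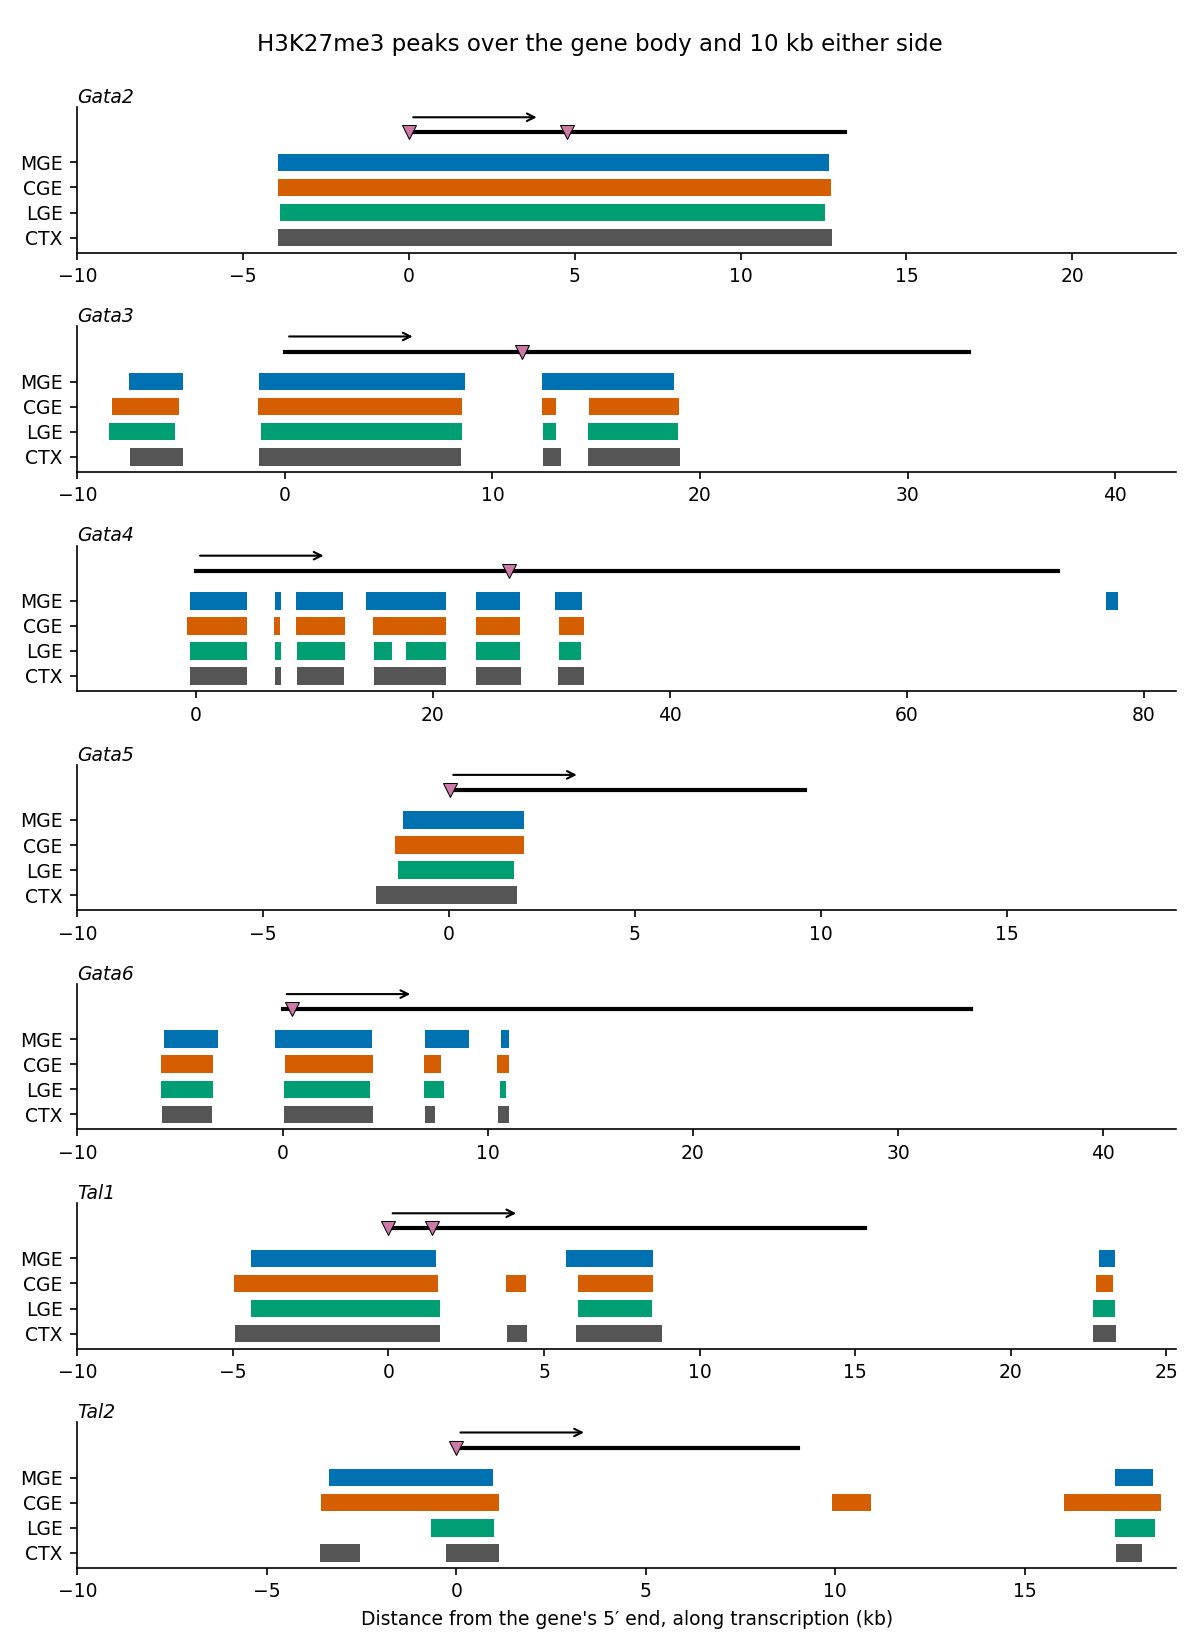
H3K27me3 peaks (coloured bars) in the 4 merged lists over each member and 10 kb either side. The x axis is the distance from the GENCODE 5′ end in kb along transcription, black lines are gene bodies, arrows give the direction of transcription and triangles mark curated RefSeq starts. *Gata2* lies under a single peak in every list, the *Gata3* triangle stands in a gap shared by all 4, and the *Tal2* peaks differ in length between lists.

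*Gata2*, which maintains blood stem cells and specifies midbrain GABAergic neurons, carried a single unbroken domain in each list. The gene lies at chr6:88193891-88207032 on the plus strand. Its peak measured 16627 (MGE), 16674 (CGE), 16444 (LGE) and 16701 (CTX) bases, the widest peak of the CGE list and the next widest of the others. It began 3957 bases before the 5′ end in MGE, CGE and CTX and 3898 before it in LGE, and ended 12545 to 12743 bases into the gene. It therefore covered 95.5 to 97.0% of the gene body, all intron bases and 89.0 to 92.6% of the exon bases, and stopped short of the 3′ end. Window coverage was 50.2, 50.3, 49.6 and 50.4% in MGE, CGE, LGE and CTX. The 4 lists lay within 0.775 points of each other, and 98.5% of the bases covered in any list were covered in all 4. The fold enrichment that the peak caller gives over the whole peak was low, at 1.61, 1.58, 1.64 and 1.58, against list medians of 2.71 to 2.99. Peaks of at least 5 kb had lower medians, of 1.82 to 1.94.

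*Gata3*, a regulator of T cells, sympathetic neurons and the inner ear, carried its mark on both sides of an uncovered start. The gene spans chr2:9857078-9890034 on the minus strand, and its GENCODE 5′ end lies 11434 bases before the RefSeq start at 9878600. A peak of 9911 (MGE), 9786 (CGE), 9690 (LGE) and 9707 (CTX) bases began 1168 to 1275 bases before the outer 5′ end and ended 8.47 to 8.66 kb inside it, with width ranks of 30, 33, 22 and 34. The next peak began 12.4 kb inside in every list. Between them chr2:9877646-9881372, 3727 bases, held no peak in any list, and the RefSeq start lies in it. The 2 kb upstream of that start were 0% covered in all 4 lists, where the 2 kb upstream of the outer end were 62.5, 63.8, 58.4 and 62.0% covered. The first large peak also runs over the annotated genes *4930412O13Rik*, covered over 88.2 to 95.5% of its length, and *9230102O04Rik*, covered in full.

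Downstream of the gap the lists differed in how *Gata3* was divided. MGE had 1 peak of 6340 bases. CGE, LGE and CTX had a short peak of 678, 647 and 874 bases, then a break, then a longer peak of 4346, 4335 and 4458 bases. An upstream peak of 2552 to 3200 bases began 7482 to 8457 bases before the outer end in the 4 lists. Window coverage was 35.5, 34.0, 33.7 and 33.2% in MGE, CGE, LGE and CTX, and 82.3% of the bases covered in any list were covered in all. Bases covered in MGE alone numbered 1430, against 26, 133 and 63 for CGE, LGE and CTX.

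*Gata4*, a factor of heart muscle and endoderm, had the largest marked area of the 7. The gene lies at chr14:63198922-63271692 on the minus strand, and its curated RefSeq start, at 63245271, is 26421 bases inside the GENCODE 5′ end. The covered bases numbered 23009 (MGE), 21618 (CGE), 19835 (LGE) and 21360 (CTX), which made up 24.8, 23.3, 21.4 and 23.0% of a long window. Apart from 972 bases in MGE beyond the 3′ end, they lay in 6 intervals from the outer 5′ end to 32.7 kb inside it, each with a peak in every list. In the window as a whole 88.6 to 93.1% of the covered bases were intronic. The 2 kb upstream of the RefSeq start were 100% covered in all 4 lists, and those upstream of the outer end were 22.7, 36.4, 26.1 and 26.1% covered. LGE differed from the others at 14.3 to 21.1 kb. There MGE, CGE and CTX had a single peak of 6797, 6106 and 6041 bases, and LGE had peaks of 1479 and 3330 bases with an uncovered break between them. The last of the 6 intervals had the highest −log10 q of the gene in every list (45.2, 92.3, 92.6 and 79.3), with fold enrichments of 2.35 (MGE), 2.36 (CGE), 2.68 (LGE) and 2.33 (CTX). The peak beyond the 3′ end was listed in MGE only, with a −log10 q of 1.39 at rank 14288 of 15384.

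*Gata5*, which acts in the endocardium and endoderm, had the smallest marked area of the 5 Gata genes and, in every list, the highest −log10 q of all 7 members. The gene lies at chr2:180325133-180334699 on the minus strand. Its single peak, of 3256, 3489, 3113 and 3785 bases in MGE, CGE, LGE and CTX, sat over the start and left the rest of the gene bare. It covered 18.3 to 21.1% of the gene body and 61.8, 73.4, 68.3 and 98.4% of the 2 kb upstream. The CTX peak reached 1967 bases upstream, against 1235, 1468 and 1366 in MGE, CGE and LGE. Fold enrichment was 3.03, 2.93, 3.35 and 2.97, above each list's median of 2.99, 2.71, 2.98 and 2.73. The −log10 q values of 64.1, 145, 120 and 133 ranked 110, 111, 108 and 54, inside the best 0.287 to 0.715% of each list. The antisense gene *Gata5os*, which overlaps this start, was covered over 39.1 to 48.1% of its length by the same peak.

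*Gata6*, which with *Gata4* drives heart and endoderm formation, had 4 peaks in each list, and MGE had the longest cover. The gene lies on the plus strand of chromosome 18, 11052064 to 11085635, and the RefSeq start is 446 bases inside the GENCODE 5′ end. Window coverage was 18.6, 15.4, 14.9 and 14.6% in MGE, CGE, LGE and CTX. The peak over the start began 381 bases before the outer 5′ end in MGE and 75 to 106 bases after it in the others, so that upstream cover was 19.1% in MGE and 0 elsewhere. The third peak was 2164 bases long in MGE and 857, 989 and 472 in CGE, LGE and CTX. MGE alone covered 1942 bases of this window, and no other list covered more than 52 on its own. An upstream peak began 5764 to 5915 bases before the gene and was 2472 to 2620 bases long in the 4 lists. The upstream peak and the peak over the start both lie on the non-coding gene *1010001N08Rik*, the latter in part, and together covered 4.49 to 5.42% of its length.

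*Tal1*, the regulator that begins blood and endothelial development, was covered at both RefSeq starts in all lists. The gene lies at chr4:115056426-115071755 on the plus strand. The start peak was 5953, 6564, 6062 and 6589 bases long in MGE, CGE, LGE and CTX, and it reached further upstream in CGE and CTX (4959 and 4925 bases) than in MGE and LGE (4409 in both). An intronic peak at 5.7 to 8.8 kb was 2362 to 2809 bases long, with −log10 q values of 48.0, 109, 97.6 and 85.2 that ranked 367, 385, 244 and 348. Between these CGE and CTX listed a further peak of 622 and 642 bases that MGE and LGE lacked. Its fold enrichments of 1.18 and 1.20 were the lowest of the whole CGE and CTX lists, at −log10 q values of 1.67 and 1.65. Window coverage was 26.2, 28.8, 25.9 and 30.5%. CGE and CTX were the higher pair and MGE and LGE the lower. At q under 0.001, and with equal covered bases, CGE fell to 25.4% and was the lowest list. A short peak of 507 to 742 bases stood 22.7 to 23.4 kb from the start, beyond the 3′ end, in all lists.

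*Tal2*, a selector of midbrain GABAergic fate, was the member whose cover differed most between lists. The gene lies at chr4:53779705-53788712 on the plus strand. Window coverage came to 18.3 (MGE), 28.6 (CGE), 9.36 (LGE) and 10.9% (CTX), a range of 19.2 points. A range of at least 10 points was found in 1 of the 7 members and in 2.02% of all genes. The other 6 members ranged over 0.775 to 4.61 points. The median range was 3.42 points over the members, 0.440 over all genes and 1.82 over genes with a peak in at least 1 list. A range in points has more room where more of the window is covered, and the members' median coverage was above that of genes with a peak. As a ratio, the highest list was 3.05 times the lowest for *Tal2* and 1.02 to 1.28 times for the other 6. No ratio over all genes is set beside these.

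The *Tal2* difference lay upstream of the start and beyond the 3′ end, and the first base of the gene was under a peak in every list. MGE had a peak of 4322 bases and CGE one of 4714 over the start, from 3363 and 3581 bases upstream to 0.958 and 1.13 kb inside. LGE had 1654 bases, starting 655 bases upstream. CTX had 1399 bases, starting 266 upstream, and a separate peak of 1066 bases that began 3598 upstream. The 2 kb upstream were thus 100, 100, 32.8 and 13.3% covered in MGE, CGE, LGE and CTX. The shorter LGE and CTX peaks had fold enrichments of 4.48 and 3.32, against 2.88 in MGE and 2.49 in CGE. A peak within 16.1 to 18.6 kb from the start, beyond the gene, was 999, 2541, 1061 and 691 bases long, and CGE listed 1 more of 1033 bases, with a −log10 q of 1.30 at rank 18622 of 19196. Over the gene body alone *Tal2* ranged over 1.93 points only, so no member then reached 10 points. With peaks under 3 kb apart joined, *Tal1* at 15.1 and *Gata6* at 12.1 points passed it as well.

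**Figure D3:**
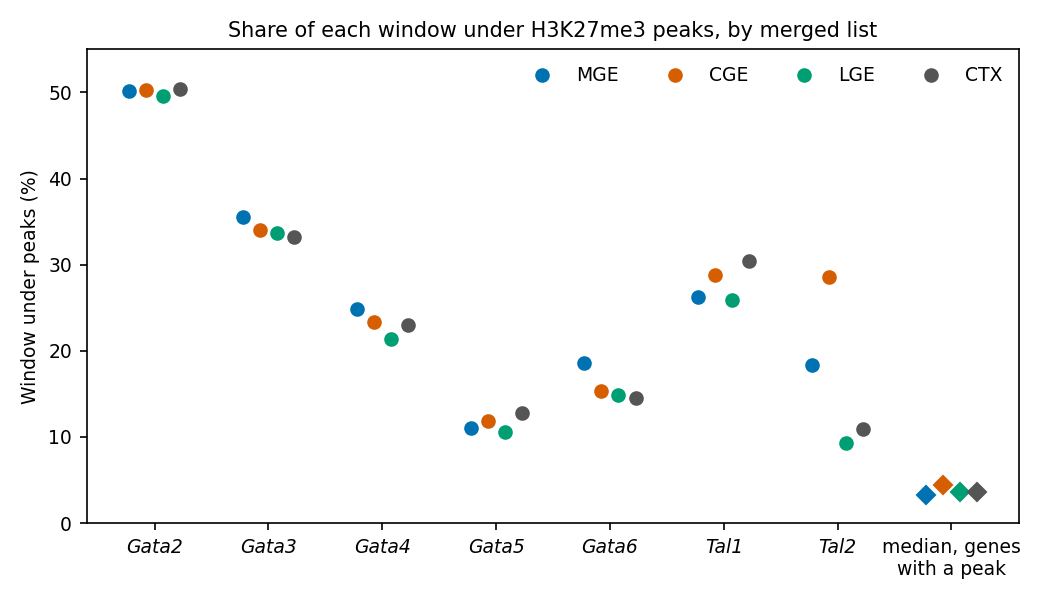
Percent of each member's window under H3K27me3 peaks (y axis) in the merged MGE, CGE, LGE and CTX lists (1 point a list, no replicate error). Diamonds give the median over all protein-coding genes with a peak, 3.27 to 4.46%. The points of *Gata2* lie within 0.775 points of each other and those of *Tal2* spread over 19.2.

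Cortex against the eminences gave differences of either sign, and no value over all genes is set beside them. Window coverage in CTX less the mean of MGE, CGE and LGE was 0.360 points for *Gata2*, -1.19 for *Gata3*, -0.137 for *Gata4*, 1.69 for *Gata5*, -1.72 for *Gata6*, 3.51 for *Tal1* and -7.88 for *Tal2*. For *Tal2* the CTX value of 10.9% lay inside the range of the eminences, 9.36 to 28.6%. CTX lay outside the range of the eminences for *Gata2*, *Gata5* and *Tal1*, where it was highest, and for *Gata3* and *Gata6*, where it was lowest. Over the gene body alone the differences of *Gata5* and *Tal2* changed sign, to -1.17 and 1.14 points, and LGE was lowest for *Gata3*, as it was with a 5 kb flank. With peaks under 3 kb apart joined, the difference was 10.4 points for *Tal1* and -0.0666 for *Tal2*, and MGE was lowest for *Gata3*. Pairs of lists shared 98.5 to 99.8% of the bases covered in either for *Gata2* and 32.8 to 64.2% for *Tal2*. For *Tal2* the pair most alike was MGE and CGE, and for *Gata2*, *Gata4*, *Gata6* and *Tal1* it was CGE and CTX. For *Gata3* it was CGE and LGE, and for *Gata5* MGE and CGE.

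The 89 peaks in the 7 windows (21, 23, 22 and 23 in the MGE, CGE, LGE and CTX lists) fell into 23 separate intervals. Of these 20 held a peak in all 4 lists, 1 in CGE and CTX, and 2 in a single list. In 17 intervals each list had exactly 1 peak, which gave 34 edges that could be compared. The spread of an edge over the lists had a median of 196.5 bases (lowest 6, highest 1675) and was under 200 bases for 18 edges and over 500 for 5. Over all members, 77.7% of the 94373 bases covered in any list were covered in all 4. The share was 98.5% for *Gata2*, 82.3% for *Gata3*, 81.8% for *Gata4*, 78.8% for *Tal1*, 74.8% for *Gata5*, 69.9% for *Gata6* and 23.1% for *Tal2*.

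**Figure D4:**
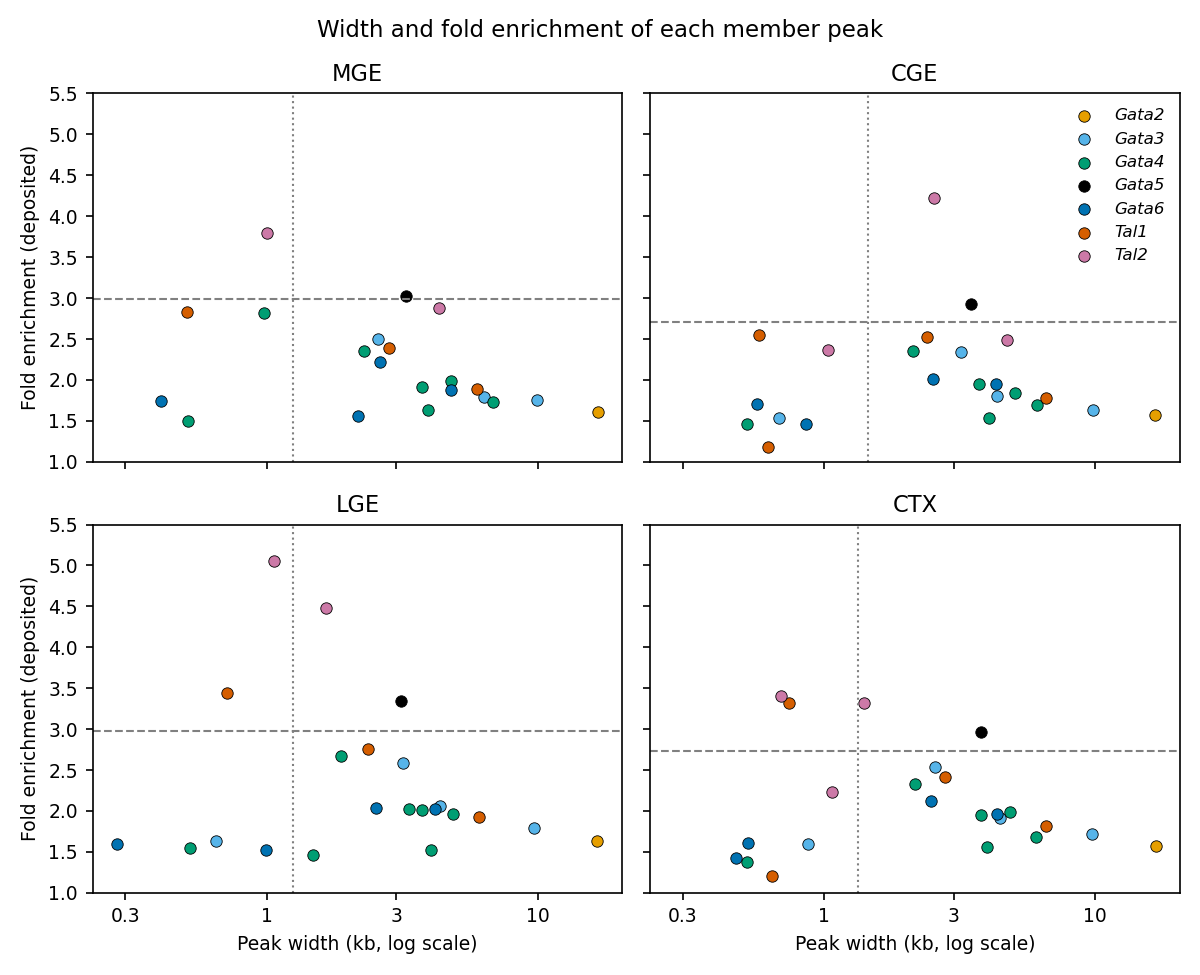
Deposited fold enrichment (y axis) against peak width (x axis, kb, log scale) for every peak in the 7 windows, coloured by gene, in each merged list; dashed and dotted lines are the list's median fold enrichment and median width. The *Gata5* peak lies above the median fold enrichment in every list at a width of 3.11 to 3.79 kb, and the *Gata2* peak is the widest and near 1.6.

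By their medians, peaks over these genes were wider, lower in fold enrichment and higher in −log10 q than the peaks of their lists as a whole. Their median width was 3256, 3200, 2815.5 and 2552 bases in MGE, CGE, LGE and CTX, against 1248, 1445, 1252 and 1334 over each list. Their median fold enrichment was 1.92, 1.85, 2.01 and 1.95, against 2.99, 2.71, 2.98 and 2.73. Their median −log10 q was 20.9, 32.2, 35.4 and 31.6, against 3.38, 4.61, 4.21 and 3.81. Of the 17 intervals with 1 peak a list, MGE had the lowest −log10 q in 14 and CGE the highest in 13. The study's methods give the merged MGE library the fewest reads and the CGE library the most, and the part of depth in these orders was not tested. Fold enrichment was highest in LGE in 12 of the 17 and in MGE in 5.

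Within every window the bases under a peak in all 4 lists held more CG dinucleotides than the bases under none. Per 100 bases they held 3.80 against 1.30 for *Gata2*, 2.75 against 1.56 for *Gata3*, 2.88 against 1.19 for *Gata4* and 5.10 against 1.11 for *Gata5*. The values were 4.60 against 0.976 for *Gata6*, 3.42 against 0.991 for *Tal1* and 2.61 against 0.908 for *Tal2*. Over the 20 chromosomes they were 3.73 and 0.801. The uncovered stretch at the *Gata3* start went the other way, with 4.21 CG per 100 bases, above the 2.75 of the covered *Gata3* bases.

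**Figure D5:**
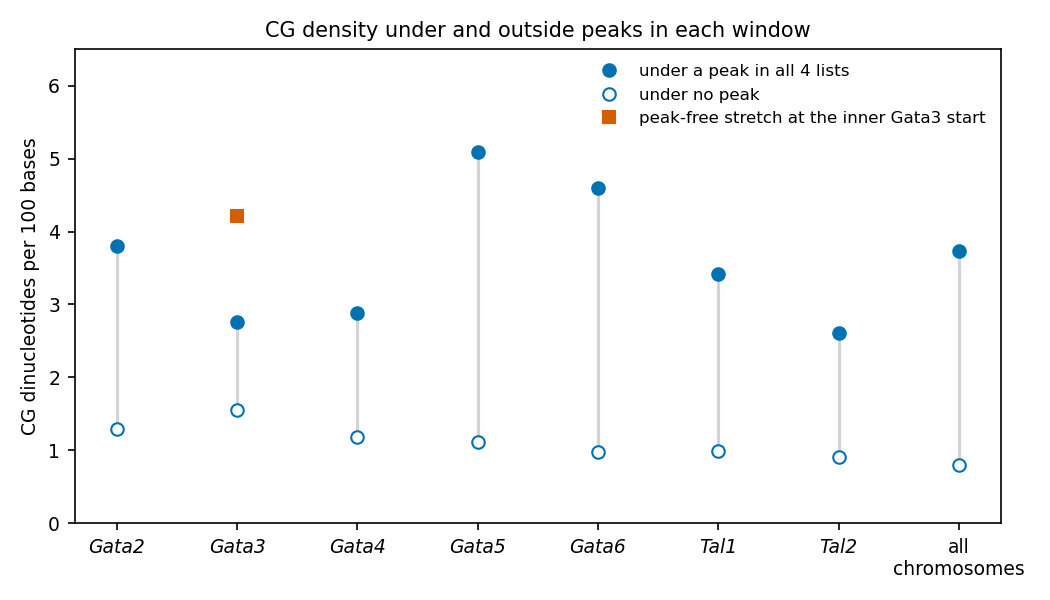
CG dinucleotides per 100 bases (y axis) in bases under a peak in all 4 lists (filled) and under no peak (open), in each window and over all chromosomes, with the peak-free stretch at the inner *Gata3* start as a square. Filled points lie at 2.61 to 5.10 and open points at 0.908 to 1.56 over the members, and the square at 4.21.

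Genes that work with the Gata and Tal factors were read the same way from 4 lists. Of all protein-coding genes, 36.1% had a peak in the window in all 4 regions' lists and 4.72% a marked promoter in all 4. Of 12 partners in blood (cofactors, LIM-domain adaptors and E proteins among them), 8 had a peak in the window in all 4 lists and none had a marked promoter in all 4. *Gata1*, the factor of red cells and platelets, had no covered base in any list. *Lmo1*, a LIM-only adaptor, was covered over 6.25% of its window in MGE against 21.1, 22.4 and 27.1% in CGE, LGE and CTX. Of 14 genes of blood and endothelium, 12 had a peak in all 4 lists and 3 a marked promoter in all 4. These were *Hhex*, *Kdr*, which encodes a VEGF receptor, and *Myb*. *Tek*, the angiopoietin receptor, and the embryonic globin *Hbb-y* had no covered base. *Epor*, the erythropoietin receptor, ranged from 12.3% in MGE to 22.4% in CGE.

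Of 16 genes of heart and endoderm, 13 had a peak in all 4 lists and 4 a marked promoter in all 4, against 36.1 and 4.72% of all genes. The marked genes were *Sox17*, *Sox7*, *Hand1* and *Hand2*. *Hnf4a* and *Alb*, which encode a liver regulator and albumin, had no covered base. *Nkx2-5*, a heart regulator, was covered over 58.3, 55.5, 44.3 and 61.7% of its window in MGE, CGE, LGE and CTX, and *Foxa1*, an endoderm factor, over 60.2, 55.5, 51.6 and 48.9%. Of 14 genes of midbrain and spinal GABAergic neurons, all 14 had a peak in all 4 lists and 8 a marked promoter in all 4. Among these were *Slc32a1*, which encodes the vesicular GABA transporter, *Nkx2-2*, *Six3*, *Nkx6-1*, *En1* and *Foxn4*. *Slc32a1* ranged from 29.2% in MGE to 43.2% in CTX and *Helt* from 16.2% in MGE to 29.2% in LGE. The median of mean window coverage was 3.96, 6.67, 19.3 and 33.6% over the partner, blood, heart and GABAergic lists. The same median over all genes was not computed. It is above 0, since 55.7% of all genes had a peak in at least 1 list.

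The protein-coding genes nearest to *Gata2*, the member with the widest peak, were found by Euclidean distance between window coverage over the 4 lists. They were *Irx4*, a homeobox gene of the heart ventricle, at a distance of 2.82 points, *Gm28230* at 2.98 and *Cbx8*, which encodes a Polycomb protein, at 3.47. Their coverage was 47.3 to 52.3% in every list.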

How the data were processed

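H3K27me3 CUT&Tag peaks were taken as deposited for MGE, CGE, LGE and CTX. Per the study's methods and the submitters' processing notes, the authors used Bowtie2 to map reads on GRCm38 (mm10), left out blacklisted regions and duplicates (Picard), merged the replicates of a region (SAMtools) and called peaks with MACS in broad mode. Quality was checked by the authors with deepTools. The MACS version and any control are not given in the sources used here. The deposited ratio is the fold enrichment of a peak over its local background, and wide peaks average it over their length. The deposited −log10 q-values were used for ranks and for a stricter threshold, and the deposited score and −log10 p-values were not used. Depth per list is unknown from the files. The extraction protocol speaks of pooling nuclei of the regions in equal numbers, though each sample is labelled with 1 region.

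Coordinates were made 1-based, and peaks on chromosomes 1 to 19 and X were intersected with the GENCODE release 21 annotation of GRCm38 (21755 protein-coding genes) in Python 3.11.15 with NumPy 2.4.6 and pandas 2.3.3, drawn with matplotlib 3.10.9. Coverage is the percent of bases under any peak. A promoter was called marked at 50% of 2 kb. With 1 merged list a region no test was possible, and values were set beside the same measure over all genes. RefSeq starts and promoter stretches are of GRCm38.p6. The coverage code was tested on simulated peaks. Every member was named; of the pathway lists, counts and up to 6 genes of each class (marked in all 4 lists, by widest peak; no covered base; range of at least 10 points, by size), neighbours that a member's peak ran into, and the 3 genes nearest to the member with the widest peak. The members and lists were chosen with earlier results of these data known. The alternatives were q under 0.001, peaks under 3 kb apart joined, equal numbers of strongest peaks, equal covered bases, flanks of 5, 20 and 0 kb and other promoter definitions. Some values of the pathway genes and neighbours are not reported here.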

Additional observations from a re-analysis of the deposited data

How the results depend on the processing

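All 7 members had a peak in every list, and the median window coverage of each list stayed within 1.5 times its value, under every alternative run for them. Counts of members with a marked promoter, 5, 5, 4 and 4 in MGE, CGE, LGE and CTX, depended on the definition. They were 7, 6, 6 and 6 where 1 covered base was enough and 7, 6, 5 and 5 with 2 kb either side. With any annotated transcript start they were 7, 7, 6 and 6, and with joined peaks 6, 5, 4 and 5. The count of members with a range of at least 10 points, 1 as reported, was 3 with peaks under 3 kb apart joined and 0 over the gene body with no flank. In the first of these *Gata6* and *Tal1* joined *Tal2*, because uncovered breaks between their peaks were filled in some lists. *Tal2* was covered most in CGE under 6 of 7 alternatives, tied with CTX at 12.6% over the gene body, and least in LGE under 6, and its range lay between 1.93 and 21.5 points. *Gata2* kept CTX as its highest and LGE as its lowest list under all 7, within 1.51 points. No difference between cortex and eminences reached 10 points as reported, and with joined peaks that of *Tal1* did, at 10.4 points. Of 294 further values of single members, 63 moved by over 1.5 times or changed sign. Counting any curated RefSeq start, an alternative chosen after seeing the data, gave the same counts of 5, 5, 4 and 4 in MGE, CGE, LGE and CTX. The marked genes were not all the same. *Gata4*, 100% covered upstream of its RefSeq start in every list, took the place of *Gata3*, 0% covered there. No paired analysis was possible because the replicates of a region were merged before peaks were called, and for the same reason no replicate could be left out. The peaks listed in only 1 or 2 lists had low −log10 q values, 1.67 and 1.65 for *Tal1* in CGE and CTX, 1.39 for *Gata4* in MGE and 1.30 for *Tal2* in CGE, and the part of depth in their absence elsewhere was not tested.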

Other observations

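Outside the windows, peaks within 100 kb of the gene bodies differed in number between members. *Gata6* and *Tal2* had none in any list. *Gata5* had 6 in MGE and CGE, 8 in LGE and 7 in CTX, and *Gata3* had 1 in MGE, LGE and CTX and 2 in CGE. For *Gata3* a short peak of 412 to 664 bases stood about 16 kb before the outer 5′ end in all 4 lists. For *Gata2* a peak of 2227 (MGE), 2695 (CGE), 2732 (LGE) and 2778 (CTX) bases lay about 40 to 44 kb from the start, within *Dnajb8*. For *Tal1* a peak of 1533, 3070, 2567 and 1644 bases lay about 38 to 42 kb from the start, and another of 1423 to 2078 bases near 77 kb, with its highest −log10 q, 23.9, in CTX and its lowest, 4.52, in MGE.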
